A study of Mus musculus with 9 samples.

Results

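The genes described here are 36 listed genes of Myc and ribosome biogenesis, taken by name from the RNA-seq table without immunoglobulin (Ig) genes. All 36 were found among the 29995 genes of that table. The list holds 5 genes of the Myc network and 31 genes whose proteins make or assemble ribosomes: 6 of RNA polymerase I and its factors, 6 of the small nucleolar ribonucleoproteins (snoRNPs), 5 of small subunit maturation, 8 of large subunit assembly and 6 further nucleolar proteins. Of these, 35 passed the filter on low values (a TPM, the length-corrected share of transcripts, of at least 1 in at least 3 libraries) and were among the 12892 genes tested, and Mycn did not pass.

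RNA was sequenced from 9 libraries of B-lineage cells of the spleen, 3 for each of 3 sorted groups. All groups came from 12-week-old mice of strain B6.Blimp1GFP, genotype B6.Blimp1GFP/+, so that controls too carried 1 reporter allele of Blimp1, whose green fluorescent protein (GFP) shows transcription of that gene. All mice, those giving naive B cells included, had been injected intraperitoneally with 50 µg of NP-LPS, a hapten on bacterial lipopolysaccharide, 4 days earlier. Naive B cells were sorted as B220+ and IgD high cells that did not bind NP. NP-binding activated B cells were IgD-, B220+, GFP- and CD138-, and NP-binding plasma cells (PCs) were IgD-, GFP+ and CD138+. A dump gate of CD4, CD8a, Ter-119 and F4/80 was applied to all of them. The series text names 3 mice as the biological replicates, which leaves 3 libraries per group.

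Myc is a transcription factor that binds DNA as a pair with Max at E-box sequences and is known for raising the output of genes for growth. Mxd proteins also pair with Max and repress such genes. Ribosomes are built in the nucleolus, where RNA polymerase I copies the ribosomal DNA, snoRNPs modify the transcript, and a long series of assembly factors cuts, folds and packs it into the small and the large subunit. Resting B cells are small and enlarge after activation, and PCs devote much of their transcript pool to antibody.

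The libraries held 20189947 to 38602257 estimated reads without Ig genes, with PCs the shallowest group. The label of PCs against the other groups was checked on Prdm1 and Pax5. Prdm1, which encodes Blimp1, lay at a TPM of 78.4 to 116 in PCs and at 1.97 to 7.24 elsewhere, and Pax5, a B cell regulator, lay at 1.18 or less in PCs and at 42.9 or more elsewhere. The summed TPM of 8 T cell genes was 57.4 to 65.6 in naive B cells, 24.6 to 58.7 in NP-binding B cells and 5.65 to 8.21 in PCs. In naive and NP-binding B cells most of it came from Lck, at 49.5 to 56.7 and at 20.4 to 53.7, while Cd3e did not exceed 1.15 and Trac was listed at 0 in all 9 libraries. PC replicate 3 stood apart: the summed TPM of 6 liver genes was 4613 there and at most 26.5 in the other libraries, and that of 9 myeloid genes was 109.7 against 12.7 and 20 in the other PC libraries. Results on PCs whose call changes without this library are therefore given both ways, and the part of these transcripts in any result was not tested. NP-binding B cell replicate 2 also held more of the myeloid genes, 73.2 against 16.7 and 19.7 in the others.

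TPM is a share of the transcripts of a library, corrected for transcript length, so levels of different genes may be compared, but a change in RNA per cell and a change in the number of cells that express a gene cannot be told apart. The 36 genes together took a summed TPM of 2479, 2543 and 2607 in naive B cells, 3480, 3278 and 3179 in NP-binding B cells and 1459, 1519 and 1435 in PCs. The groups did not overlap: the sum was highest in NP-binding B cells and lowest in PCs. Npm1, Ncl and Nop56 alone made up 40.8% ± 0.856 (SD, n = 3) of the sum in naive B cells, 42.2% ± 3.50 in NP-binding B cells and 37.1% ± 1.89 in PCs. Without Npm1 and Ncl the order of the means stayed the same, at 1858, 2289 and 1064.

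**Figure D1:**
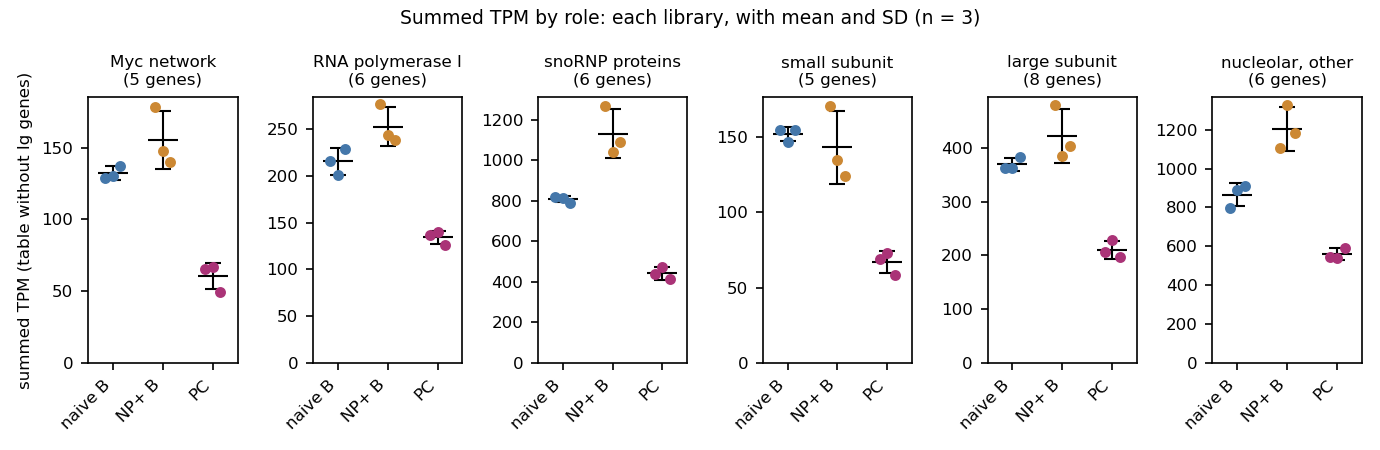
Summed TPM of the genes of each role (vertical axes, each starting at 0) in the 3 libraries of each group, with the mean and SD as black bars. In all 6 roles the PC libraries lie below all others, whereas NP-binding B cells lie above naive B cells without overlap for the snoRNP, RNA polymerase I and nucleolar genes, for the Myc network and for the large subunit genes, and overlap them for the small subunit genes.

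Against naive B cells, NP-binding B cells had modestly more RNA of 11 of the 35 tested genes and less of 4. This comparison is called activation below, as a label only. The sorted groups also differ in NP binding and IgD, and neither a cause nor an order in time was tested. The 11 that rose at an adjusted p under 0.05 (limma) were Myc, 5 snoRNP genes, Polr1e, Taf1d, Nop16, Ncl and Npm1, and the 4 that fell were Max, Mxd1, Rrp9 and Rrp12. That is 31.4% of the tested members higher against 18.6% of all genes tested, and 11.4% lower against 23.5%. None of the rises exceeded 2-fold (0 of 35, against 8.13% of all genes). Without adjustment 13 members were higher and 4 lower at p under 0.05, again with 0 rises over 2-fold. For all genes no count without adjustment was made, so no share stands beside these. Max and Mxd1 fell by more than 2-fold (5.71%, against 10.4% of all genes). The median log2 change of the members was 0.08, and that of all genes tested was -0.16, but with quantile normalization they were -0.01 and -0.08.

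From NP-binding B cells to PCs, 27 of the 35 genes fell and 2 rose. With Ig genes kept 33 fell and 0 rose, but the median log2 change of all genes was then -1.27. Shares of all genes, here and below, are those of the reported scaling. Counts under the other scalings have no such share beside them. Without Ig genes, 20 of the falls exceeded 2-fold, or 57.1% of the tested members against 22.3% of all genes, and at any fold it was 77.1% against 38.1%. Mxd1 alone rose by more than 2-fold (2.86%, against 9.93% of all genes), and Gnl3 joined it at any fold (5.71%, against 15.7%). The median log2 change was -1.08 for the members and -0.30 for all genes. Leaving out PC replicate 3, 17 genes fell by more than 2-fold and 26 at any fold, with a median of -0.99. The 3 genes that then fell by less than 2-fold were Polr1c, Wdr12 and Rrp12, and Max no longer passed the test.

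Compared with naive B cells, PCs had less RNA of 27 members and more of 2, Gnl3 and Mxd4, neither of which was higher with Ig genes kept. The falls exceeded 2-fold for 14 genes, 40% of those tested against 26.3% of all genes, while at any fold the shares were 77.1% and 42.2%. Under median-of-ratios scaling 15 members fell, 5 of them by more than 2-fold, with a median of 0.02 over all genes. Gnl3 was the 1 gene that rose by more than 2-fold (2.86%, against 11.4% of all genes), and both rises made 5.71% against 18.2% at any fold. The median log2 change was -0.95 for the members and -0.47 for all genes. The 3 comparisons share groups, so the counts are not independent of each other.

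**Figure D2:**
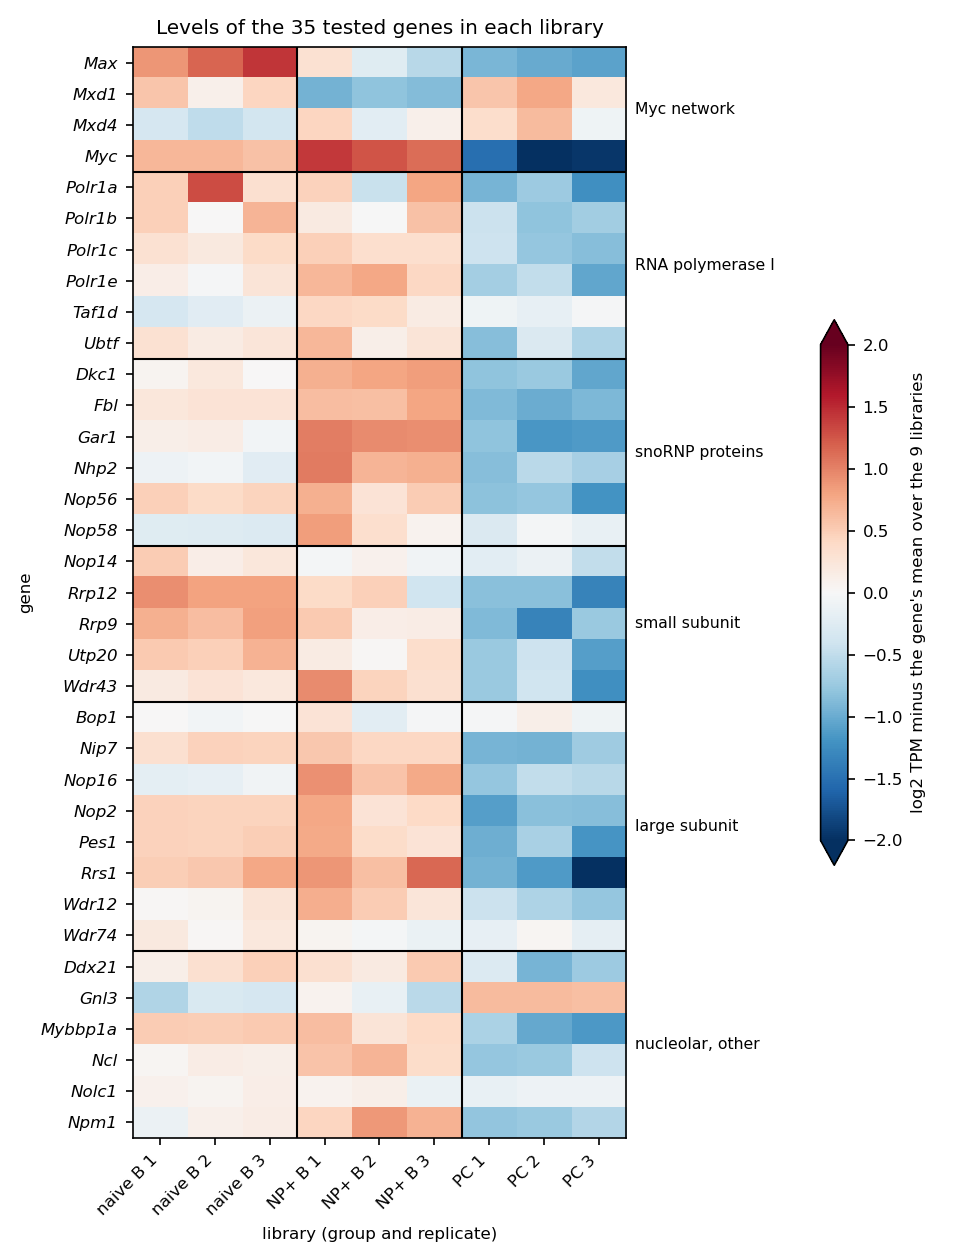
Level of each of the 35 tested genes (rows, by role) in each of the 9 libraries (columns), as log2 TPM minus the mean of that gene over all libraries, with colours cut at -2 and 2. Most rows are blue in PCs and red in NP-binding B cells, Gnl3 is red in PCs, Mxd1 is blue in NP-binding B cells, and Bop1, Wdr74 and Nolc1 are pale throughout.

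Within the Myc network, Myc itself (chr15:61985391-61990374, plus strand, build GRCm38) stood at a TPM of 72.3, 72.3 and 68.4 in naive B cells, 122, 109 and 99.0 in NP-binding B cells and 16.1, 9.66 and 11.8 in PCs. The 3 groups did not overlap, and all PC libraries were far below the rest. Myc rose by 0.62 ± 0.13 (SE) on the log2 scale on activation (adjusted p = 0.00362) and was 8.62-fold lower in PCs than in NP-binding B cells (log2 change -3.11 ± 0.17, adjusted p = 1.08e-07). This was the largest fall of any member in the fit. PCs were also 5.62-fold below naive B cells (adjusted p = 5.65e-07). Estimated reads on Myc were 325 to 529 in PCs and 2767 or more elsewhere, so its low level in PCs was still well above the floor of 3 reads.

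Mycn, a Myc paralogue used mainly outside mature lymphocytes, did not exceed a TPM of 0.930 in any library and was not tested. Its estimated reads were 5.0 to 43.8 in 8 libraries and 0 in PC replicate 2, where a count of 0 allows up to 3 reads.

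Max, the partner that both Myc and Mxd proteins need, had a TPM of 28.1, 34.1 and 41.2 in naive B cells, 18.9, 12.9 and 10.3 in NP-binding B cells and 8.11, 7.62 and 7.26 in PCs. Here the order was different from that of Myc: the naive libraries were highest and no 2 groups overlapped. Max was 2.46-fold lower in NP-binding than in naive B cells (log2 change -1.30 ± 0.21, adjusted p = 0.000837) and fell by a further 0.79 ± 0.26 to PCs (adjusted p = 0.0236), although that last step did not pass the test without PC replicate 3 (-0.75, adjusted p = 0.0619) or replicate 2 (-0.79, adjusted p = 0.0559), without NP-binding B cell replicate 1 (-0.56, adjusted p = 0.0781) or under median-of-ratios scaling (-0.41, adjusted p = 0.174). In TPM there were 0.488 ± 0.108 Max transcripts per Myc transcript in naive B cells, 0.126 ± 0.0260 in NP-binding B cells and 0.635 ± 0.144 in PCs (SD, n = 3).

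Mxd1, a repressor of the network, had a TPM of 7.58, 5.52 and 6.97 in naive B cells, 2.69, 2.96 and 2.82 in NP-binding B cells and 7.63, 8.85 and 5.96 in PCs. NP-binding B cells were lowest with no overlap, and PCs and naive B cells overlapped. It fell by 1.11 ± 0.24 on activation (adjusted p = 0.00378) and was 2.38-fold higher in PCs than in NP-binding B cells (log2 change 1.25 ± 0.23, adjusted p = 0.000919, and 0.22 with Ig genes kept, adjusted p = 0.335), whereas PCs and naive B cells differed by 0.14 ± 0.20 (adjusted p = 0.572). That last difference depended on the scaling, at 0.63 under median of ratios (adjusted p = 0.0213), 0.72 with quantile normalization (adjusted p = 0.00941) and -0.88 with Ig genes kept (adjusted p = 0.00134).

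Mxd4, another repressor, was measured at 20.7, 18.3 and 20.1 in naive B cells, 34.9, 22.6 and 28 in NP-binding B cells and 33.1, 40.4 and 24.5 in PCs. All libraries of both NP-binding groups exceeded all naive ones, but these 2 groups overlapped each other. PCs differed from NP-binding B cells by 0.19 ± 0.20 (adjusted p = 0.462). That difference was 0.57 under median-of-ratios scaling (adjusted p = 0.029), 0.59 with quantile normalization (adjusted p = 0.0109) and -0.97 with Ig genes kept (adjusted p = 0.00104). PCs were 1.60-fold above naive B cells (log2 change 0.68 ± 0.21, adjusted p = 0.017, but -0.49 with Ig genes kept), and the step on activation, 0.49 ± 0.22, did not pass the test (adjusted p = 0.0883), though it did under median-of-ratios scaling (adjusted p = 0.035), with quantile normalization (adjusted p = 0.033), with Ig genes kept (adjusted p = 0.0427) and when PC replicate 3 was left out (0.0469). The difference from naive B cells did not pass it without PC replicate 2 (adjusted p = 0.0651) or naive B cell replicate 2 (adjusted p = 0.0562). Together the 2 repressors had 0.372 ± 0.0366 transcripts per Myc transcript in naive B cells, 0.285 ± 0.0439 in NP-binding B cells and 3.4 ± 1.47 in PCs (SD, n = 3), and the range in PCs was 2.53 to 5.10.

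**Figure D3:**
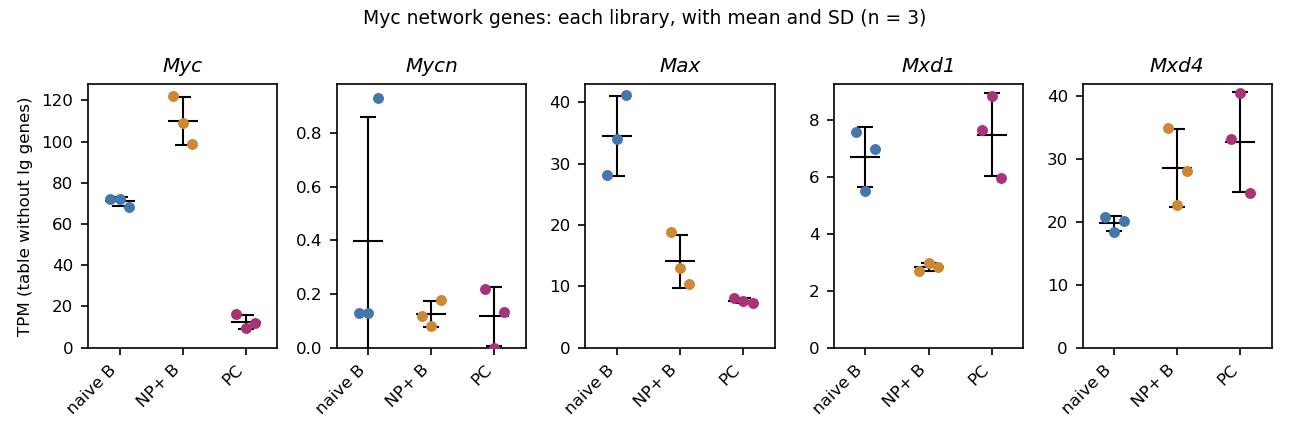
TPM of the 5 Myc network genes (vertical axes, each starting at 0) in each library of naive B cells, NP-binding B cells (NP+ B) and PCs, with the mean and SD as black bars. Myc peaks in NP-binding B cells and is lowest in PCs, Max is highest in naive B cells, Mxd1 is lowest in NP-binding B cells, and Mycn stays at or below 0.930.

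The E-box bound by Myc and Max has the letters CACGTG, which read the same on both strands. RefSeq promoter windows of build GRCm38.p6, 250 bases before to 50 bases after a gene start, were at hand for 30 of the 36 genes, and Myc, Npm1, Fbl, Bop1, Rrp12 and Rrs1 had no entry. The E-box stood in a window of 7 genes, or 23.3%, compared with 8.09% of all 27025 genes with a window, 11.7% of tested genes and 21.4% of the further ribosome biogenesis genes described below. A match is a description of the sequence and not a site of binding. The 7 stretches are shown because they sit at members from every role but RNA polymerase I and the snoRNPs. Each is written 5′ to 3′ on the strand of its gene with the E-box in capitals.
Max, chr12:76962234-76962263, minus strand: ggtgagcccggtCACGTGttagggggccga
Mxd4, chr5:34187912-34187941, minus strand: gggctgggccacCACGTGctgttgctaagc
Nop2, chr6:125131811-125131840, plus strand: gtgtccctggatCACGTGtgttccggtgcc
Pes1, chr11:3963965-3963994, plus strand: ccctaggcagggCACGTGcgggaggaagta
Mybbp1a, chr11:72441355-72441376, plus strand: gtcttctgagccCACGTGtttg
Wdr43, chr17:71616220-71616249, plus strand: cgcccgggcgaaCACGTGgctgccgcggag
Utp20, chr10:88826765-88826789, minus strand: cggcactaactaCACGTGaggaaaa
The changes of these 7 genes from NP-binding B cells to PCs ran from -1.39 to 0.19 on the log2 scale with a median of -1.34. By more than 2-fold 4 of them fell, or 57.1%, the share found over all tested members, where 22.3% of all genes tested fell. On activation their median change was -0.01.

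RNA polymerase I genes came first in the order of ribosome making. Polr1a and Polr1b encode its 2 large catalytic subunits, Polr1c and Polr1e smaller ones, Taf1d a subunit of the promoter factor SL1, and Ubtf the upstream binding factor that keeps ribosomal DNA open. On activation 2 of the 6 rose and none of the 6 passed the test downwards, where 18.6% and 23.5% of all genes did. At the step to PCs 5 fell, of which 2 by more than 2-fold (1 without PC replicate 3), with a median log2 change of -0.92 (38.1% of all genes fell, 22.3% by more than 2-fold). Under median-of-ratios scaling or quantile normalization 3 fell, 0 of them by more than 2-fold.

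Polr1e had a TPM of 35.6, 31.9 and 39.1 in naive B cells, 51.4, 55.4 and 43.5 in NP-binding B cells and 20.3, 23.2 and 15.9 in PCs. No groups overlapped. It rose by 0.48 ± 0.15 on activation (adjusted p = 0.027) and was 2.51-fold lower in PCs than in NP-binding B cells (adjusted p = 5.34e-05). The rise did not pass the test without naive B cell replicate 1 or 2 or NP-binding B cell replicate 1 or 2 (adjusted p of 0.0596 to 0.101). Polr1c fell 2.07-fold at the same step (log2 change -1.05 ± 0.13, or -0.96 without PC replicate 3 and -0.67 under median-of-ratios scaling), from 64.5 to 71.2 in NP-binding B cells down to 28.2 to 38.3 in PCs. Ubtf fell by 0.93 ± 0.17 and Polr1b by 0.86 ± 0.23, and the change of Polr1b did not pass the test under median-of-ratios scaling (-0.47, adjusted p = 0.0918) or quantile normalization (-0.38, adjusted p = 0.166).

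Polr1a was the lowest of the tested members, with a TPM of 0.767 to 1.09 in PCs and 1.32 to 4.45 in the other libraries. Its step from NP-binding B cells to PCs, -0.91 ± 0.38, did not pass the test (adjusted p = 0.0616), and its difference between PCs and naive B cells, -1.27 ± 0.37, did (adjusted p = 0.0112), but not under median-of-ratios scaling (-0.77, adjusted p = 0.108) or quantile normalization (-0.87, adjusted p = 0.0802). Taf1d rose by 0.53 ± 0.12 on activation and fell by 0.40 ± 0.12 in PCs (a change of 0.01 with quantile normalization). It was at 31.9 to 37.4 in naive B cells and 36.2 to 39.6 in PCs, which overlap. The difference of PCs from naive B cells passed the test under median-of-ratios scaling (0.62, adjusted p = 0.00108) and quantile normalization (0.51, adjusted p = 0.00445), but was -1.05 with Ig genes kept.

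Most snoRNP genes were higher in NP-binding B cells and lower in PCs. Fbl (fibrillarin, the methyltransferase), Nop56 and Nop58 form the box C/D particle, which guides methylation of ribosomal RNA, and Dkc1 (dyskerin, the pseudouridine synthase), Gar1 and Nhp2 belong to the box H/ACA particle. On activation 5 of the 6 rose, with a median log2 change of 0.67, and Nop56 did not pass the test (18.6% of all genes rose). All 6 fell from NP-binding B cells to PCs, 5 by more than 2-fold, with a median of -1.53, and against naive B cells 5 fell in PCs, 3 by more than 2-fold (0 under median-of-ratios scaling). Of all genes 38.1% and 42.2% fell in these comparisons, 22.3% and 26.3% by more than 2-fold.

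Gar1 had a TPM of 48.2, 49.4 and 42.9 in naive B cells, 90.3, 85.8 and 85.3 in NP-binding B cells and 25.6, 20 and 20.3 in PCs. The 3 groups were far apart and tight within themselves. The rise on activation was 1.84-fold (log2 change 0.88 ± 0.11, adjusted p = 0.00017) and the fall to PCs 3.92-fold (log2 change -1.97 ± 0.13, adjusted p = 3.44e-07).

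Nhp2 rose on activation by 0.93 ± 0.12 (adjusted p = 0.000183), from 119, 123 and 109 in naive B cells to 263, 206 and 209 in NP-binding B cells. In PCs its TPM was 70.8, 88.3 and 80.4, below all others, which is a 2.81-fold fall from NP-binding B cells. Dkc1 stood at 106, 117 and 102 in naive B cells, at 166, 175 and 181 in NP-binding B cells and at 58.0, 60.5 and 49.4 in PCs. In TPM the 3 H/ACA genes thus shared 1 order of groups, with no overlap. The difference of Nhp2 between PCs and naive B cells, -0.56 ± 0.13, was -0.07 under median-of-ratios scaling and did not pass the test there (adjusted p = 0.712).

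Among the box C/D genes, Fbl rose by 0.40 ± 0.09 on activation (0.26 with quantile normalization, adjusted p = 0.0571) and fell 2.99-fold in PCs. Nop56, the most abundant of the group, was at 316 to 427 in NP-binding B cells and 341 to 363 in naive B cells, which overlap, and fell 2.68-fold to 113 to 152 in PCs. Nop58, its paralogue in the same particle, stood at 104, 104 and 103 in naive B cells, 220, 156 and 129.5 in NP-binding B cells and 101, 120 and 112 in PCs. It rose by 0.66 ± 0.17 on activation and fell by 0.56 ± 0.17 in PCs (-0.18 under median-of-ratios scaling and -0.50 without PC replicate 1, neither of which passed the test). The PC and naive libraries lay close together (difference 0.09 ± 0.17, adjusted p = 0.665). That difference was 0.58 under median-of-ratios scaling (adjusted p = 0.0108), but -1.12 with Ig genes kept. In TPM, Nop58 had 0.294 transcripts per Nop56 transcript in naive B cells, 0.453 in NP-binding B cells and 0.821 in PCs.

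Another promoter motif, CCGGAAG with its reverse complement CTTCCGG, is the core that ETS family factors bind and is common in promoters of growth and housekeeping genes. It does not overlap the E-box in letters. It stood in a window of 8 of the 30 genes, or 26.7%, compared with 9.93% of all genes with a window, 20.9% of tested genes and 44.9% of the further ribosome biogenesis genes. The matches at the snoRNP and RNA polymerase I genes are shown, since no E-box was found in the windows of those roles. The motif is in capitals.
Gar1, chr3:129831422-129831450, minus strand: gcgccgccacaCTTCCGGaaacgtcgcgt
Nhp2, chr11:51619739-51619767, plus strand: cacttgaaaacCCGGAAGtgatgtcggag
Polr1c, chr17:46248070-46248098, minus strand: ccacttgacgtCCGGAAGtgaaggacgtg
Polr1e, chr4:45018623-45018651, plus strand: ctagaatgtcaCTTCCGGtttttgagtcc
The other genes with this motif were Nop2, Nip7, Wdr74 and Nolc1. Over the 8, the median log2 change from NP-binding B cells to PCs was -1.31 and the range -1.97 to -0.06.

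None of the 5 small subunit genes of the list rose on activation, where 18.6% of all genes tested did. A list of 5 genes is too short to tell this count from that share. Nop14, Wdr43 and Utp20 belong to the processome that cleaves the precursor RNA, Rrp9 to the U3 snoRNP within it, and Rrp12 to later maturation and export of the 40S particle. On activation 2 of the 5 fell, where 23.5% of all genes did, and the median log2 change was -0.36. At the step to PCs 4 fell, 3 by more than 2-fold (2 without PC replicate 3, and 0 under median-of-ratios scaling or quantile normalization), and against naive B cells all 5 fell in PCs, 3 by more than 2-fold. Of all genes 38.1% and 42.2% fell at these steps, 22.3% and 26.3% by more than 2-fold. Scaled by median of ratios, 3 of the 5 fell against naive B cells, and with quantile normalization 4 did, 2 by more than 2-fold in both.

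Rrp9 was lower in each group in turn, from 57.1, 53.5 and 61.5 in naive B cells to 50.3, 38.5 and 38.6 in NP-binding B cells and 19.0, 13.8 and 20.9 in PCs. No groups overlapped. It fell by 0.45 ± 0.15 on activation (adjusted p = 0.0371) and 2.35-fold from there to PCs (adjusted p = 0.000161). Rrp12 had the same order at a lower level, 11.7 to 12.8 in naive B cells, 5.07 to 9.32 in NP-binding B cells and 2.66 to 3.78 in PCs, and between naive B cells and PCs it fell 3.28-fold (adjusted p = 0.000172). From NP-binding B cells its change to PCs was -1.04 ± 0.27 (adjusted p = 0.0068), or -0.90 without PC replicate 3, and under median-of-ratios scaling it did not pass the test (-0.66, adjusted p = 0.0564). On activation Rrp12 fell by 0.67 ± 0.22 (adjusted p = 0.0343), but neither its fall nor that of Rrp9 passed the test under median-of-ratios scaling (adjusted p = 0.0643 and 0.0706). The same held for Rrp9 without any 1 of the naive libraries or of NP-binding B cell replicates 2 and 3 (adjusted p of 0.056 to 0.116), and for Rrp12 without any 1 of the naive libraries or NP-binding B cell replicate 3 (adjusted p of 0.0693 to 0.109).

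Wdr43 went from 52.3 to 55.6 in naive B cells to 57.8 to 88.9 in NP-binding B cells, a change of 0.34 ± 0.19 that did not pass the test (adjusted p = 0.177), and was 2.53-fold lower in PCs than in NP-binding B cells. Utp20 fell by 0.81 ± 0.23 (adjusted p = 0.0123), but not under median-of-ratios scaling (-0.42, adjusted p = 0.147) or quantile normalization (-0.49, adjusted p = 0.122), and Nop14 changed by -0.26 ± 0.16 (adjusted p = 0.212) at that step. Between naive B cells and PCs Nop14 fell by 0.56 ± 0.16 (adjusted p = 0.0114), but not without naive B cell replicate 1 (adjusted p = 0.0564) or under median-of-ratios scaling (-0.06, adjusted p = 0.779).

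Of the 8 large subunit genes, 6 fell by more than 2-fold from NP-binding B cells to PCs (22.3% of all genes did). The number of large subunit genes was 5 without PC replicate 3, 3 under median-of-ratios scaling and 1 with quantile normalization, and at any fold 6 fell in each of these settings. Pes1, Bop1 and Wdr12 encode the PeBoW complex needed for processing of 28S and 5.8S ribosomal RNA, Rrs1 brings the 5S particle into the large subunit, Nop2 is a ribosomal RNA methyltransferase, and Nop16, Wdr74 and Nip7 are assembly factors. On activation 1 of the 8, Nop16, rose and none passed the test downwards (18.6% and 23.5% of all genes did). Wdr12, with a change of 0.37 ± 0.15 (adjusted p = 0.0724), passed it under median-of-ratios scaling (0.48, adjusted p = 0.0157) and with quantile normalization (0.36, adjusted p = 0.0467). The median log2 change from NP-binding B cells to PCs was -1.31.

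Nop16 rose on activation, from 40.9, 41.8 and 44.6 to 88.2, 68.9 and 78.5 (1.82-fold, adjusted p = 0.000342), and was at 27.4, 33.1 and 31.6 in PCs, below both. Its difference between PCs and naive B cells, -0.47 ± 0.14, became 0.02 under median-of-ratios scaling and did not pass the test without PC replicate 1 (adjusted p = 0.0526). Rrs1 fell 4.83-fold from NP-binding B cells to PCs (log2 change -2.27 ± 0.29, adjusted p = 5.59e-05). Its TPM was 41.3, 34.0 and 49.7 in NP-binding B cells, 31.7, 32.7 and 38.6 in naive B cells and 11.6, 10.2 and 4.41 in PCs, with PC replicate 3 lowest. Without that library the log2 change was -1.86.

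The 3 genes of the PeBoW complex did not move together. Pes1 was at 84.7, 84.0 and 86.1 in naive B cells, 104, 79.6 and 74.3 in NP-binding B cells and 31.3, 39.1 and 27.0 in PCs, and Wdr12 fell 2.11-fold from NP-binding B cells to PCs (log2 change -1.08 ± 0.16, or -0.99 without PC replicate 3). Bop1 was at 43.8, 41.8 and 43.2 in naive B cells, 52.6, 37.6 and 42.8 in NP-binding B cells and 42.6, 46.9 and 40.7 in PCs. All 3 groups of Bop1 overlapped, and its changes of 0.02, -0.02 and 0.01 in the 3 comparisons had an SE of 0.14 each, but its difference between PCs and naive B cells was -1.18 with Ig genes kept and 0.50 under median-of-ratios scaling (adjusted p = 0.00656). Bop1 had 0.505 transcripts per Pes1 transcript in naive B cells, 0.518 in NP-binding B cells and 1.36 in PCs.

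Nop2 fell 2.61-fold and Nip7 2.45-fold from NP-binding B cells to PCs, and neither passed the test on activation. Wdr74 lay at 38.5 to 50.7 in all 9 libraries and passed the test in no comparison as scaled here. From NP-binding B cells to PCs it changed by -0.06 ± 0.12, but by 0.32 under median-of-ratios scaling (adjusted p = 0.0400) and by -1.23 with Ig genes kept (adjusted p = 4.43e-06).

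Of the remaining nucleolar proteins, Npm1 (nucleophosmin, a chaperone of the granular region) and Ncl (nucleolin, which binds nascent ribosomal RNA) were the most abundant members. Npm1 stood at 461, 531 and 552 in naive B cells, 669, 904 and 807 in NP-binding B cells and 289, 297 and 332 in PCs, and Ncl at 163, 176 and 172, at 234, 252 and 204, and at 92.2, 94.0 and 118. In both genes no groups overlapped. Npm1 rose 1.52-fold on activation (adjusted p = 0.0023) and fell 2.57-fold to PCs (adjusted p = 4.12e-06), and Ncl rose 1.34-fold (adjusted p = 0.0131, or 0.0525 without naive B cell replicate 1 and 0.294 with quantile normalization) and fell 2.26-fold (adjusted p = 1.11e-05).

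Mybbp1a, a nucleolar repressor of RNA polymerase I transcription, fell 2.54-fold from NP-binding B cells to PCs, and Ddx21, an RNA helicase that couples polymerase I to processing, fell by 0.95 ± 0.19. Nolc1, a chaperone of snoRNPs, was at 23.3 to 28.3 in all libraries and passed the test in no comparison as scaled here, while with Ig genes kept its changes to PCs were -1.27 from NP-binding and -1.36 from naive B cells.

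Gnl3 (nucleostemin, a nucleolar GTPase at chr14:31012433-31019152, minus strand) was the 1 ribosome biogenesis gene of the list that rose in PCs as scaled here, although with Ig genes kept it did not. Its TPM was 34.5, 42.3 and 41.3 in naive B cells, 54.9, 47.0 and 36.1 in NP-binding B cells and 81.4, 80.6 and 79.2 in PCs. The PC libraries lay within a narrow band above all others, and the other 2 groups overlapped. Gnl3 was 1.77-fold higher in PCs than in NP-binding B cells (log2 change 0.82 ± 0.15, adjusted p = 0.000684) and 2.03-fold higher than in naive B cells (1.02 ± 0.15, adjusted p = 0.000149), but with Ig genes kept in the total these changes were -0.37 and -0.18. Relative to Ncl, Gnl3 had 0.231 ± 0.0165 transcripts per transcript in naive B cells, 0.199 ± 0.0307 in NP-binding B cells and 0.803 ± 0.117 in PCs (SD, n = 3), a ratio taken within each library. Without naive B cell replicate 1 its change from naive B cells to PCs was 0.93, under 2-fold.

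**Figure D4:**
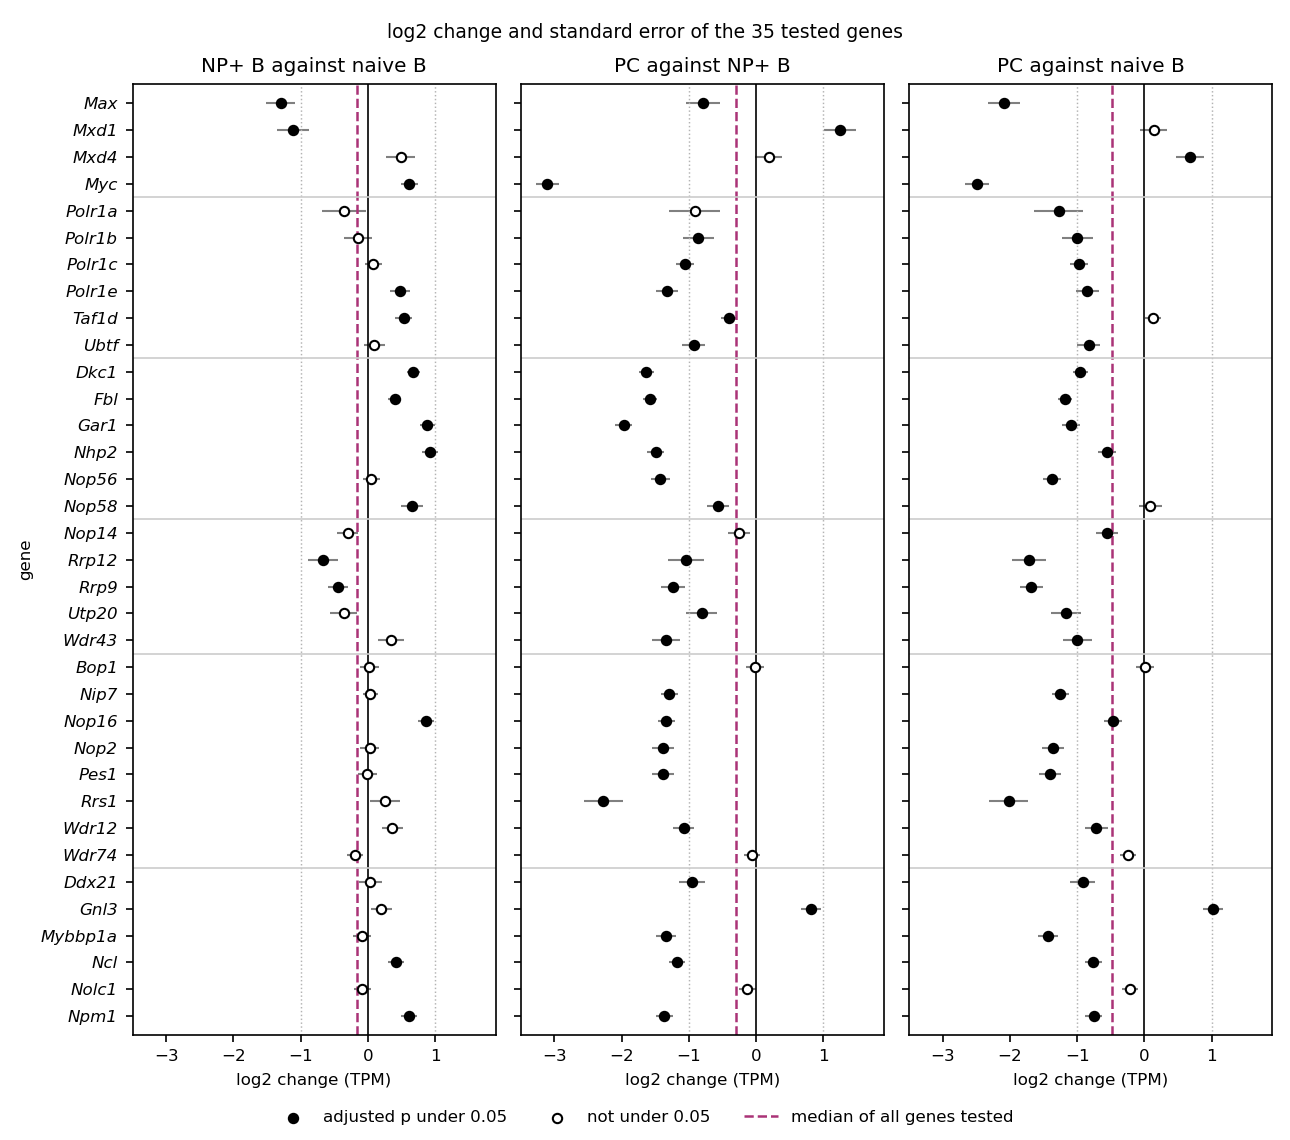
log2 change in TPM with its standard error for the 35 tested genes (rows, grouped by role) in the 3 comparisons, filled where the adjusted p was under 0.05, with the median of all genes tested as a dashed line and a 2-fold change as dotted lines. In the middle panel most genes lie near or left of -1, Myc lies farthest left at -3.11, and Mxd1 and Gnl3 are the filled points right of 0, of which Gnl3 turns to -0.37 when Ig genes are kept.

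Gnl3 also belongs to the members that carry genes of small nucleolar RNAs. The GENCODE annotation of GRCm38 places 27 such genes on the same strand inside 7 of the 36 members (19.4%), namely Ncl, Nop56, Nop58, Dkc1, Wdr43, Taf1d and Gnl3, compared with 1.72% of 11223 tested protein-coding genes and 1.80% of 111 further ribosome biogenesis genes. Their changes from NP-binding B cells to PCs ran from -1.63 for Dkc1 to 0.82 for Gnl3 with a median of -1.18, and the 28 other tested members had a median of -1.06. Of the 27, 9 lie clear of all exons of the host. In all, 15 members overlap a gene on the opposite strand, a share not counted over all genes. Gnl3, Taf1d and Bop1 are among them, and so are Dkc1, Nop56 and Nhp2. Dkc1, Nop56 and Nhp2 each fell by more than 2-fold from NP-binding B cells to PCs. The library kit does not mark strand, so reads of the opposite-strand genes cannot be told apart where exons overlap.

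The size of the fall in PCs depends on what the libraries are scaled to. PCs hold so much Ig RNA that the authors' values rose 3.33- to 3.60-fold in PC libraries when Ig genes were left out, against 1.07-fold in naive and 1.11- to 1.13-fold in NP-binding B cell libraries. Scaled by median of ratios, 21 members fell and 5 rose from NP-binding B cells to PCs (9 and 2 by more than 2-fold), with a median of -0.70 where that of all genes was 0.08. With quantile normalization 21 fell and 5 rose, with a median of -0.72 beside 0.00 for all genes. With Ig genes kept, 33 fell and 0 rose, and the medians were -2.21 and -1.27. The share of all genes called was not counted under these 3 scalings, so only the medians can be set beside those of all genes. In the reported scaling, median of ratios, quantile normalization and with Ig genes kept, in that order, the members' median minus that of all genes was -0.78, -0.78, -0.72 and -0.93, and between PCs and naive B cells it was -0.48, -0.48, -0.60 and -0.60. The genes that fell by more than 2-fold in all 4 were Dkc1, Fbl, Gar1, Myc, Nhp2, Nop56 and Rrs1, that is Myc, 5 snoRNP genes and 1 large subunit gene. How many of all genes tested did so in all 4 was not counted, so this is a list and not an excess.

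**Figure D5:**
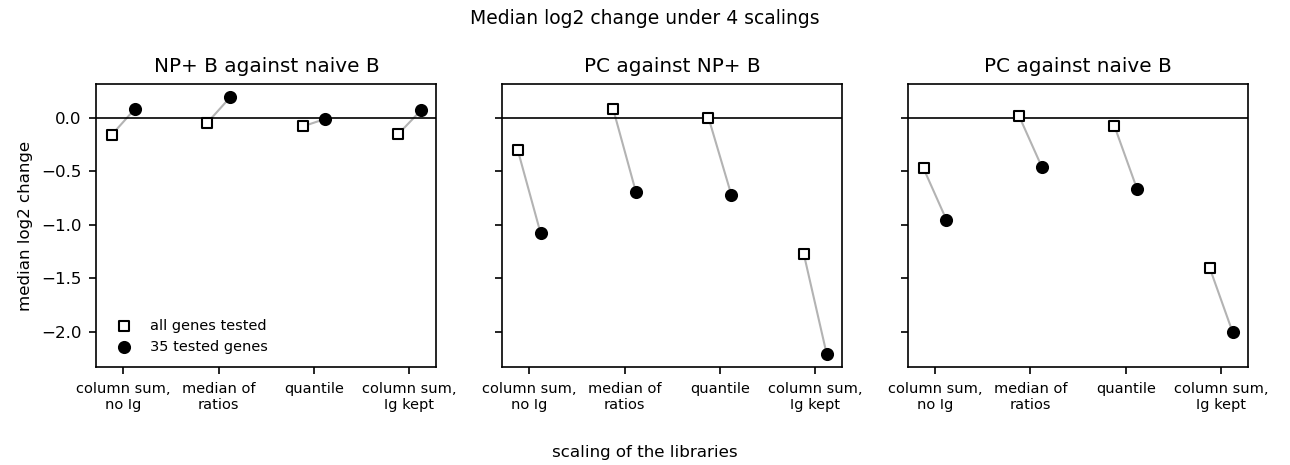
Median log2 change of the 35 tested genes (filled circles) and of all genes tested (open squares) in the 3 comparisons under 4 ways of scaling the libraries. Both medians shift with the scaling in the PC comparisons, to -2.21 and -1.27 from NP-binding B cells to PCs with Ig genes kept, while the members' median minus that of all genes stays between -0.93 and -0.72 there, and between -0.60 and -0.48 for PCs against naive B cells. On activation the median of the 35 genes turns from 0.08 to -0.01 with quantile normalization.

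The lists below hold other genes of the same pathways by their known function, and earlier results of these data were known when they were drawn up. Of 114 tested further ribosome biogenesis genes, 23 rose and 21 fell on activation, with 0 rises and 3 falls over 2-fold and a median of 0.00. The shares that rose and fell, 20.2% and 18.4%, compare with 18.6% and 23.5% of all genes tested, and leaving out 1 library moved the number that rose to 10, 9 and 12 without naive B cell replicates 1, 2 and 3 and to 14 without NP-binding B cell replicate 1. From NP-binding B cells to PCs 84 fell and 5 rose, 23 and 0 by more than 2-fold, with a median of -0.63, and 75 fell without PC replicate 3. The share that fell was 73.7% at any fold and 20.2% over 2-fold, where all genes tested had 38.1% and 22.3%. Under median-of-ratios scaling or quantile normalization 44 fell, and over 2-fold 6 fell and 2 rose. The medians of all genes were then 0.08 and 0.00, so the shares above do not belong to these counts. Against naive B cells 84 fell (77 without PC replicate 3) and 4 rose in PCs, 32 and 0 of them by more than 2-fold. The falls made 73.7% at any fold and 28.1% over 2-fold, where all genes tested had 42.2% and 26.3%. Scaled by median of ratios, 37 fell, 9 by more than 2-fold, with a median of 0.02 over all genes.

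Among the further genes called over 2-fold, Nle1 and Nol6, factors of the large and the small subunit, and Taf1c of the SL1 factor fell on activation, by 1.36 ± 0.17, 1.21 ± 0.16 and 1.15 ± 0.22 on the log2 scale. Noc2l fell by 2.40 ± 0.25 and Ddx31 by 1.85 ± 0.21 from NP-binding B cells to PCs, and both take part in large subunit assembly. Noc2l also led the falls against naive B cells, at -2.26 ± 0.25, followed by Surf6 at -1.89 ± 0.15.

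Of 9 tested further Myc network genes, 3 rose and 3 fell on activation (18.6% and 23.5% of all genes). From NP-binding B cells to PCs 2 rose and 4 fell (15.7% and 38.1%), and against naive B cells 3 and 5 (18.2% and 42.2%), or 3 and 4 without PC replicate 3. Over 2-fold it was 2 and 0 (8.13% and 10.4%), 2 and 3 (9.93% and 22.3%, and 2 and 2 without that library), and 2 and 4 (11.4% and 26.3%). Mxd3, an Mxd protein known from dividing cells, rose by 2.21 ± 0.24 on activation and Mlxip, a partner of Mlx, by 1.5 ± 0.20. Both then fell from NP-binding B cells to PCs, Mlxip by 3.11 ± 0.25 and Mxd3 by 1.03 ± 0.20, or by 0.80 for Mxd3 without PC replicate 3 and by 0.64 under median-of-ratios scaling, under 2-fold. Mycbp, which binds the Myc protein, rose at that step by 1.67 ± 0.13 and Mlx by 1.32 ± 0.13, and with Ig genes kept these were 0.47 and 0.12. Against naive B cells Mycbp rose by 2.39 ± 0.14 and Mxd3 by 1.17 ± 0.26 in PCs, or by 1.18 and 0.10 with Ig genes kept. Mnt, a Max-binding repressor, fell by 1.86 ± 0.25 from naive B cells to PCs.

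Other genes known as Myc targets, which act outside the nucleolus, were counted too. Of 20 tested, 14 rose and 0 fell on activation, 6 by more than 2-fold, with a median log2 change of 0.62, where 18.6% of all genes rose and 8.13% did so by more than 2-fold. From there to PCs 11 fell and 3 rose, where 38.1% and 15.7% of all genes did. Between PCs and naive B cells 6 rose and 5 fell, with a median of 0.00 (0.49 under median-of-ratios scaling and -1.18 with Ig genes kept), while the 35 members had a median of -0.95. Of all genes 18.2% rose and 42.2% fell in that comparison. Cell cycle genes were counted beside them: all 12 tested rose by more than 2-fold on activation (median 3.48), 8 fell and 1 rose from there to PCs (median -0.57), and all 12 rose in PCs against naive B cells (median 2.9), of which 4 fell instead with Ig genes kept. Whether division has a part in the levels of the 36 genes was not tested.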

How the data were processed

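Poly(A) RNA of 9 sorted samples was amplified with the SMARTer v4 kit and sequenced after Nextera XT tagmentation, which does not mark strand. The submitters' processing notes name kallisto, limma and build mm10. The deposited TPM values were made by the authors per gene symbol, with and without Ig genes, and the deposited log2 values are the authors' voom output. TPM without Ig genes were used (29995 genes, and 322 Ig genes left out). Estimated reads were recovered from the log2 values, whose offset of 0.5 gives each library's size.

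TPM were tested with voom and limma 3.58.1 in R 4.3.3 over all 9 libraries with a mean per group, for genes at a TPM of 1 or more in 3 libraries, with Benjamini-Hochberg adjustment over the 12892 genes tested. An adjusted p under 0.05 passed the test, and counts over 2-fold are given besides. Fold changes are on the voom scale. The fit was also run on simulated counts, drawn around the naive means with known changes in some genes. These held no shift of a whole library like that in PCs, so they do not test the scaling. Alternatives were other scalings (median of ratios, quantile, Ig genes kept), the authors' log2 values, estimated counts, offsets of 0.1 and 1, other filters, the 6 libraries compared alone, a replicate block and leaving out each library.

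The members and lists were chosen with earlier results of these data known. All 36 members are named, and of the further ribosome biogenesis and Myc network genes, pooled into 1 list, the top 3 risers and top 3 fallers past 2-fold in each comparison, or fewer where fewer passed. Promoter windows came from RefSeq and positions from GENCODE. Separate cultures or litters are not given, so p-values measure the spread between these libraries. Groups of 3 libraries are too small for the formal outlier test, which was not run.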

Additional observations from a re-analysis of the deposited data

How the results depend on the processing

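The median change of the listed genes in PCs was below 0 in every scaling tried, but its size differed. For the members, median-of-ratios scaling gave 1 gene higher over 2-fold and 2 lower at any fold on activation. In PCs against NP-binding B cells it gave 2 higher and 9 lower over 2-fold, 5 higher at any fold and a median of -0.70, and against naive B cells 2 higher and 5 lower over 2-fold, 6 higher and 15 lower at any fold and a median of -0.46. Quantile normalization gave 1 lower over 2-fold on activation with a median of -0.0105, then 2 higher, 8 lower, 5 higher at any fold and -0.72 from NP-binding B cells to PCs, and 2, 9, 5 and -0.67 against naive B cells. With Ig genes kept, 0 were higher and 32 lower over 2-fold with 0 higher at any fold in both PC comparisons, with medians of -2.21 and -2.0. The differences between PCs and naive B cells then turned to -1.12 for Nop58, -1.18 for Bop1, -1.05 for Taf1d and -0.18 for Gnl3, and, under 2-fold in both settings, to -0.88 for Mxd1 and -0.49 for Mxd4. At any fold 2 members were lower on activation with the authors' log2 values, an offset of 0.1, no filter or a mean TPM of 10. That mean TPM, under which Mxd1 was not tested, left 1 lower over 2-fold, and 0 higher over 2-fold and 1 at any fold from NP-binding B cells to PCs, and an offset of 1 left 1 lower over 2-fold on activation. Summed TPM were 2381, 2963 and 429 in the table with Ig genes, and 1858, 2289 and 1064 without Npm1 and Ncl.

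Leaving out single libraries gave 0 members higher and 2 lower over 2-fold in each case, 9 to 12 higher at any fold and 2 to 4 lower at any fold on activation, with medians of 0.03 to 0.16. The 2 lower at any fold came without any 1 of the naive libraries and without NP-binding B cell replicate 3. From NP-binding B cells to PCs, 17 to 22 were lower over 2-fold (17 without PC replicate 3), 26 to 28 at any fold, with medians of -1.26 to -0.99. Against naive B cells 0 to 1 were higher (0 without naive replicate 1), 14 to 18 lower, 1 to 2 higher and 26 to 27 lower at any fold, with medians of -1.02 to -0.86.

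For the further ribosome biogenesis genes, those higher at any fold on activation numbered 15 with quantile normalization, 12 and 13 with offsets of 0.1 and 1 and 14 without a filter. From NP-binding B cells to PCs, 2 were higher and 6 lower over 2-fold with either scaling, with 12 higher and 44 lower at any fold under median of ratios and 11 and 44 under quantile normalization. Estimated counts gave 1 higher over 2-fold, 3 were higher at any fold with either offset, no filter or the replicate block, 2 with the 6 libraries alone, and 0 with Ig genes kept, where 105 were lower over 2-fold. Against naive B cells median of ratios gave 3 higher and 9 lower over 2-fold and 18 and 37 at any fold, quantile normalization 3, 11, 9 and 52, and Ig genes kept 108 lower over 2-fold and 0 higher at any fold. Leaving out libraries gave 2 to 5 lower over 2-fold, 9 to 23 higher and 15 to 26 lower at any fold on activation, 0 to 1 higher, 23 to 28 lower, and 2 to 5 higher and 75 to 85 lower at any fold from NP-binding B cells to PCs, and 32 to 36 lower, 3 to 5 higher and 74 to 86 lower at any fold against naive B cells. For the further Myc network on activation, 1 was lower over 2-fold with the authors' log2 values, estimated counts or an offset of 0.1, and 1 at any fold with these log2 values, median of ratios, no filter or that offset. With Ig genes kept 0 were higher, 5 lower and 1 higher at any fold from NP-binding B cells to PCs, and 1 higher over 2-fold and 1 at any fold against naive B cells. Quantile normalization left 1 lower from NP-binding B cells to PCs, and median of ratios 2 lower against naive B cells. Leaving out libraries gave 1 to 4 lower at any fold on activation, 2 to 3 lower over 2-fold and 4 to 5 at any fold from NP-binding B cells to PCs, and 2 to 3 higher over 2-fold and 4 to 5 lower at any fold against naive B cells.

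Over 105 single-gene results and 2088 alternative values, counting as passed a change over 2-fold with an adjusted p under 0.05, 1979 kept their call, 54 newly passed, 51 no longer passed and 4 turned. The causes were not tested. The series text does not say that a replicate number marks 1 mouse. Deviations of same-numbered libraries correlated at -0.03 to 0.12 over 7250 genes. Between naive and NP-binding B cells each library correlated best with its own number, a hint from the data only. Against PCs, naive B cell replicate 1 did so too (0.115). Naive B cell replicate 2 had 0.0326 with its own number and 0.0482 with PC replicate 3. Naive B cell replicate 3 had -0.0299 with its own number and 0.0484 with PC replicate 2. Between NP-binding B cells and PCs all values lay from -0.0154 to 0.0135. With the replicate block 15 members were lower over 2-fold in PCs than in naive B cells, and the other counts of members stayed as reported. Depth limits Mycn, with 0 to 43.8 estimated reads, and intervals for other genes cover the spread of 3 libraries a group.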
